A study of Mus musculus with 6 samples.

Results

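The genes described here encode the tubulins and the cytoplasmic actins, the building blocks of microtubules and actin filaments. They are 10 of the 55335 gene identifiers in the expression table of the series. They comprise the alpha-tubulin genes Tuba1a, Tuba1b, Tuba1c and Tuba4a, the beta-tubulin genes Tubb2a, Tubb4b, Tubb5 and Tubb6, and the actin genes Actb and Actg1. The members were found by mapping Ensembl identifiers to mouse symbols. They were chosen by name with the difference between the 2 arms of these same libraries already in view. Their values are therefore given as a description, with no p-value, although the fit over all genes included those that passed its filter. RNA was sequenced from primary microglia that had shared a culture with neutrophils for 24 h. The microglia came from brains of newborn C57BL/6 mice, were wild type (WT) in all 6 libraries and had been detached by shaking mixed glia on day 14. Neutrophils were drawn by magnetic sorting from injured spinal cords at 3 days post injury (dpi) and differed in Cd177, which encodes a surface glycoprotein of neutrophils. They came from Cd177 WT mice in 3 libraries and from Cd177 knockout (KO) mice in the other 3. After co-culture the microglia were separated again by fluorescence-activated sorting. Per the study's methods the animals were male, and how many donors were pooled for a library was not given in the sources used here. It is not stated whether libraries of 1 arm stem from different cultures, so all p-values below measure the spread between these libraries, which may be technical.

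A microtubule is a hollow polymer of alpha-tubulin and beta-tubulin dimers, and each of the 2 subunits is encoded by several genes whose products differ mainly in their acidic tails. Cytoplasmic beta-actin and gamma-actin, the products of Actb and Actg1, form the filaments that shape the cortex, drive the ruffling processes of microglia and power phagocytosis. Because these transcripts are abundant in nearly all cells, Actb in particular is widely used as a loading standard. The level of tubulin mRNA is known to be set partly by the pool of free dimers. The ribosome-binding protein TTC5 recognises the first residues of nascent tubulin and, through SCAPER, directs the CCR4-NOT deadenylase to the mRNA being translated.

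The residues read in that process lie at the very start of the coding sequence. The first 15 coding bases of each kind of member are shown for that reason, with codons 2 to 4 in capitals, read 5′ to 3′ from GENCODE transcripts of the GRCm38.p6 build.
Tuba1b: atgCGTGAGTGCatc
Tuba4a: atgCGCGAGTGCatt
Tubb2a: atgCGCGAGATCgtg
Tubb4b: atgAGGGAGATCgtg
Tubb5: atgAGGGAAATCgtg
Actb: atgGATGACGATatc
Actg1: atgGAAGAAGAAatc
The capitals encode arginine, glutamate and cysteine in the alpha-tubulins and arginine, glutamate and isoleucine in the beta-tubulins, which are the 2 forms of the recognised signal. Tuba1a and Tuba1c carry the same 15 bases as Tuba1b. In the alpha-tubulin genes the first coding exon ends after 3 bases, so the capitals lie in the next exon, whereas in the beta-tubulin genes the first coding exon holds 57 bases and all the letters shown. Codons 2 to 4 are aspartate codons in Actb and glutamate codons in Actg1, and the coding sequences of these actins were 88.6% identical, with 128 mismatches over 375 codons.

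The end of the coding sequence separates Tuba4a from the other alpha-tubulins. The last 15 coding bases before the stop codon are given with the final codon in capitals.
Tuba1b: gaaggagaggagTAC
Tuba4a: gatgagggagaaGAG
Tubb5: gcagaagaggagGCC
Tuba1a, Tuba1b and Tuba1c end in a tyrosine codon, the residue that is removed and added again in the detyrosination cycle of microtubules, whereas Tuba4a ends in a glutamate codon. Over the whole coding sequence Tuba1a, Tuba1b and Tuba1c were 97.1 to 98.3% identical to each other and 84.8 to 85.3% identical to Tuba4a. The beta-tubulins were less alike, with 80.2 to 84.6% identity over all pairs of the family.

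The table holds FPKM values, fragment counts divided by transcript length and by the mapped fragments of the library, so that levels can be compared between genes. The summed FPKM per library ranged from 314085 to 315632 with WT neutrophils and was higher in the KO libraries, at 323588 to 326868. The smallest steps between low values corresponded to about 15600000 to 19200000 fragments per library. The step was set at the most common low value, and 25.9 to 27.0% of low values were whole multiples of it within 0.05 fragments. Evenly spread values would give 10%, but values at the step itself match by construction. The excess is therefore no check of the step, and the depth is a rough estimate. Read counts were not recovered from these values. The mitochondrial share was 11.1 to 11.3% in WT libraries, against 14.3 to 14.6% in KO libraries. Cd177 stood at 0.477, 0.113 and 0.151 FPKM with WT neutrophils and at 0.109, 0.022 and 0.084 FPKM with KO neutrophils, so the microglial libraries held too little of it to check the donors' genotype. Of 14 microglia and macrophage markers 10 reached 1 FPKM, while C1qa was listed at 0 and P2ry12, Tmem119 and Aif1 stayed below 1 FPKM in every library. None of 13 neutrophil markers reached 1 FPKM. Summed, they reached 2.03 to 2.30 FPKM in WT and 0.791 to 1.28 FPKM in KO libraries, and Ly6g, S100a9, Mpo, Elane, Ltf and Retnlg were listed at 0. No marker of astrocytes, of the oligodendrocyte lineage, of neurons or of fibroblasts and mural cells reached 1 FPKM, out of lists of 8, 9, 9 and 8 genes. The sums of these lists were at most 0.265, 0.512, 0.680 and 0.592 FPKM in any library.

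The tubulin and actin genes did not all differ in 1 direction. In 7 of the 10 members every KO library stood above every WT library, in 1, Tubb5, every KO library stood below, and in Actg1 and Tuba4a the arms overlapped. On the TPM scale, on which every library has the same sum, 6 members stood above and 1 below, as the arms of Tubb6 then overlapped. Over the 11395 genes that averaged 1 FPKM or more, 31.3% had every KO library above and 24.6% every KO library below. Since the members were selected on this contrast, nothing is read from their count. The median log2 difference was 0.31 over the 9 members that passed that filter and 0.024 over all genes tested.

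Tuba1b, a broadly expressed alpha-tubulin gene, lies at chr15:98931425-98934565 on the minus strand and was the most abundant member in both arms. It measured 357, 347 and 354 FPKM with WT neutrophils and 480, 470 and 472 FPKM with KO neutrophils. The means were 353 ± 5.06 and 474 ± 5.11 (SD, n = 3 each), a difference of 34.4% or 0.43 on the log2(FPKM + 1) scale (SE 0.018). The arms were far apart relative to the spread within them. Tuba1c (chr15:99029891-99038110, plus strand) read 119, 116 and 117 FPKM against 148, 144 and 145 FPKM, a log2 difference of 0.31 (SE 0.02). Tuba1a, the alpha-tubulin gene best known from developing neurons (chr15:98949837-98953703, minus strand), read 52.7, 52.7 and 48.5 FPKM against 60.7, 60.8 and 64.0 FPKM, a log2 difference of 0.27 (SE 0.042). All 3 neighbouring genes of the Tuba1 cluster were thus higher in each library with KO neutrophils, by 20.5 to 34.4%. Tuba4a (chr1:75214228-75219865, minus strand) was listed at 0 in 5 libraries and at 0.017 FPKM in WT replicate 3. At the roughly estimated depth, a value of 0 allows up to 0.055 to 0.068 FPKM per library (3 fragments over its transcript of 2840 bases, counting error only). Listed at 0 or nearly so, this member is treated as not detected, and no difference is given.

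The beta-tubulins differed in direction from one another. Tubb5, a broadly expressed beta-tubulin gene (chr17:35833921-35838306, minus strand), read 315, 333 and 331 FPKM in WT libraries and 296, 293 and 296 FPKM with KO neutrophils. Its means were 326 ± 10.1 and 295 ± 1.89 FPKM (SD, n = 3 each), a difference of -9.5%, or -0.14 on the log2 scale (SE 0.025). Every KO library lay below the lowest WT library, though the gap was narrower than for Tuba1b. Tubb4b, a broadly used beta-tubulin that also serves cilia (chr2:25222160-25224702, minus strand), read 65.6, 68.1 and 64.2 FPKM against 90.7, 90.8 and 89.5 FPKM, a log2 difference of 0.45 (SE 0.027). Tubb2a, which is enriched in neurons (chr13:34074274-34078007, minus strand), read 5.64, 4.61 and 4.94 FPKM against 8.35, 6.99 and 8.15 FPKM, a log2 difference of 0.54 (SE 0.088). It had the largest difference of the members and also the lowest level of those tested, at the 43.1 percentile of all tested genes, while the other 8 lay at or above the 93.3 percentile.

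Tubb6, another beta-tubulin gene (chr18:67390717-67402749, plus strand) was nearly level, with 58.0, 58.7 and 59.2 FPKM against 61.0, 62.2 and 60.8 FPKM. The KO libraries lay just above the WT libraries, by 4.6% of the mean or 0.06 on the log2 scale (SE 0.021). On the TPM scale the log2 difference of Tubb6 was 0.015, and the arms overlapped, with 184.6, 186.0 and 188.5 TPM against 186.9, 192.1 and 186.1 TPM.

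**Figure D1:**
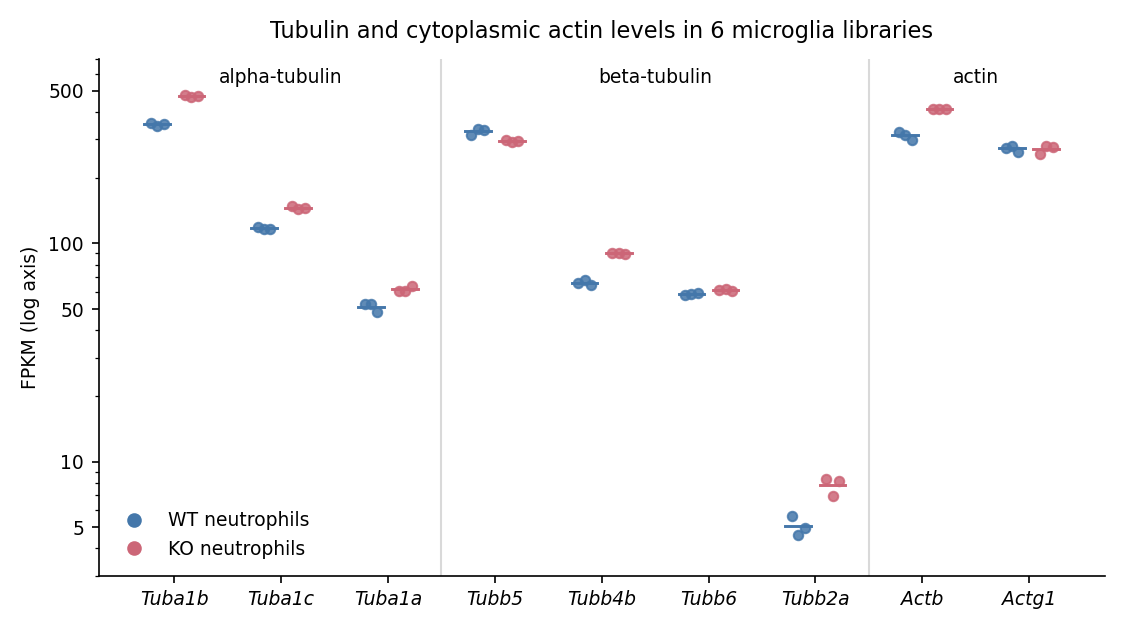
FPKM (log axis) of 9 genes (Tuba4a, listed at 0 in 5 libraries, is left out) in the 3 libraries with WT neutrophils (blue points) and the 3 with KO neutrophils (red points), with short lines at the means. The KO points lie above the WT points in 7 genes, below them only in Tubb5, and among them in Actg1, and levels span from a WT mean of 5.06 FPKM for Tubb2a to a KO mean of 474 FPKM for Tuba1b.

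The 2 actin genes parted as well. Actb (chr5:142903115-142906754, minus strand) read 324, 314 and 299 FPKM with WT neutrophils and 413, 413 and 414 FPKM with KO neutrophils. The means were 313 ± 12.3 and 413 ± 0.431 FPKM (SD, n = 3 each), 32.2% higher in the KO arm, or 0.40 on the log2 scale (SE 0.03). The KO libraries agreed far more closely with one another than the WT libraries did. Actg1 (chr11:120345690-120348542, minus strand) read 275, 280 and 263 FPKM against 256, 280 and 277 FPKM. Its means of 272 ± 8.84 and 271 ± 12.9 FPKM differed by less than the spread within either arm. The ratio of Actb to Actg1 was 1.179, 1.123 and 1.139 in the WT libraries and 1.612, 1.476 and 1.495 in the KO libraries, without overlap. Actb therefore made up 53.4 ± 0.614% of the summed actin FPKM in WT libraries and 60.4 ± 1.13% with KO neutrophils.

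Ordered by mean level in the WT arm, the genes ran Tuba1b, Tubb5, Actb, Actg1, Tuba1c, Tubb4b, Tubb6, Tuba1a, Tubb2a and Tuba4a. In that order only the neighbours Tubb5 and Actb had overlapping ranges. In the KO arm Actb stood above Tubb5 and Tuba1a above Tubb6, and only Tuba1a and Tubb6 overlapped.

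**Figure D2:**
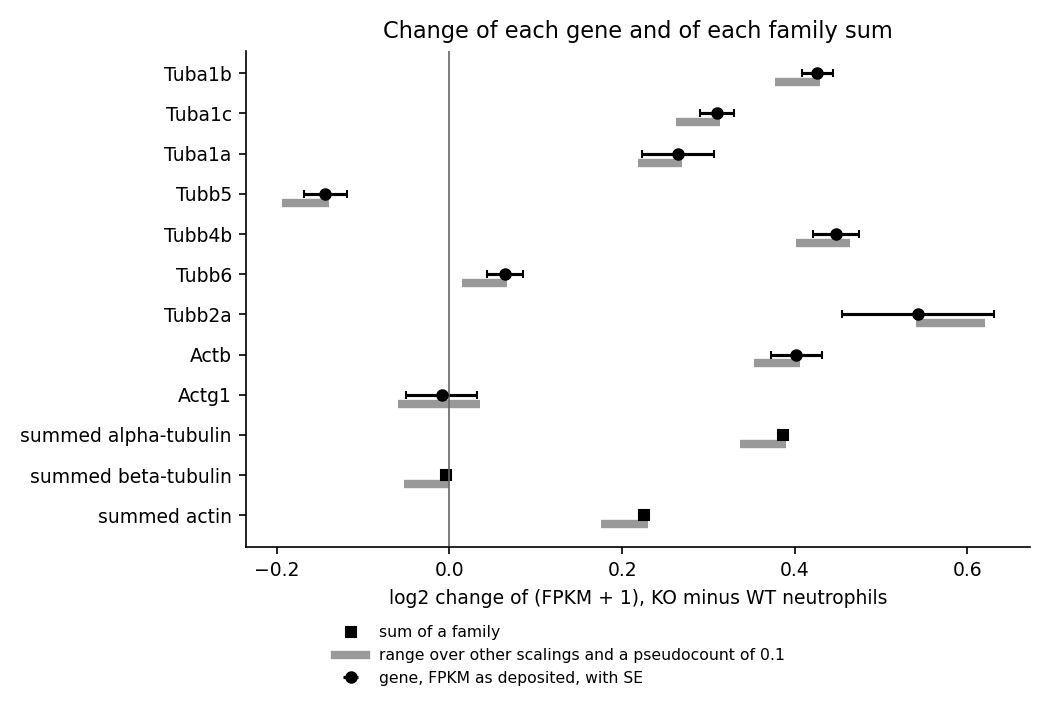
Log2 difference of (FPKM + 1), KO minus WT neutrophils, for each of the 9 tested genes (points with standard error) and for each family sum (squares), with grey bars for the range over 4 other scalings and a pseudocount of 0.1. Tubb5 stays below 0 and 7 genes stay above 0 in every setting, whereas the bar of Actg1 crosses 0, from -0.06 to 0.04.

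Summed over genes, the 2 subunits of the tubulin dimer differed. Alpha-tubulin FPKM added up to 528, 516 and 519 with WT neutrophils and to 688, 675 and 681 with KO neutrophils, with means of 521 ± 6.54 and 681 ± 6.74 FPKM (SD, n = 3 each), 30.7% higher in the KO arm. Beta-tubulin FPKM added up to 444, 464 and 459 against 456, 453 and 455. The beta-tubulin arms overlapped, with means of 456 ± 10.7 and 455 ± 1.78 FPKM. On the TPM scale the beta sum was 1413, 1472 and 1463 TPM with WT neutrophils against 1398, 1400 and 1391 TPM, so that every KO library lay below the WT libraries, with a log2 difference of -0.05. That of the alpha sum was 0.34. The ratio of alpha to beta was 1.190, 1.110 and 1.130 in the WT libraries and 1.507, 1.490 and 1.498 in the KO libraries. This ratio is formed within a library and does not depend on how libraries are scaled. The actin sum was 585 ± 20.0 FPKM in WT libraries and 684 ± 13.2 FPKM with KO neutrophils, 16.9% higher. All 10 members together took 0.49 to 0.5% of the library's FPKM with WT neutrophils and 0.555 to 0.563% with KO neutrophils. In bulk RNA, fewer cells of a type and less RNA per cell cannot be told apart, and this holds for every level given here.

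Within the beta sum, the makeup differed between the arms. Tubb5 supplied 70.9, 71.7 and 72.1% of it in the WT libraries and 64.9, 64.7 and 65.1% in the KO libraries. Tubb4b supplied 14.8, 14.7 and 14.0% against 19.9, 20.0 and 19.7%, and Tubb2a 1.11 ± 0.143% against a mean of 1.72%. Tubb5 exceeded Tubb4b 4.95 ± 0.185 times with WT neutrophils and 3.27 ± 0.04 times with KO neutrophils. The alpha-tubulin family kept a steadier makeup, with Tuba1b at 67.7 ± 0.419% and 69.6 ± 0.199%, Tuba1c at 22.5 ± 0.046% and 21.4 ± 0.105%, and overlapping arms for Tuba1a.

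**Figure D3:**
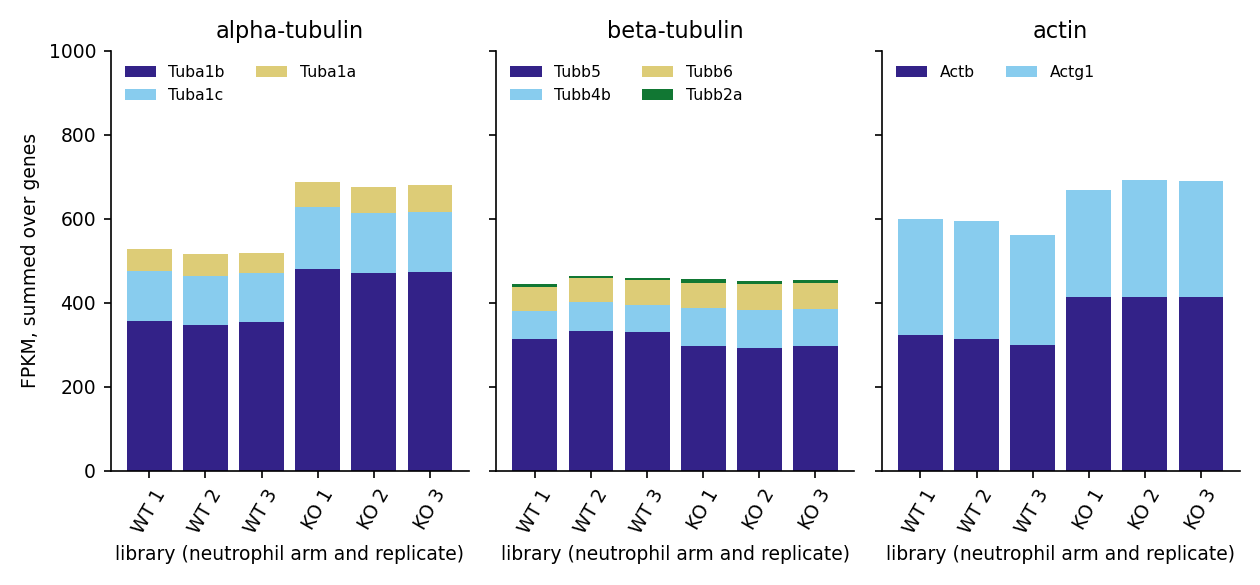
FPKM summed over the genes of each family in each library (stacked bars from 0, one bar per library, one colour per gene). The alpha-tubulin bars reach 516 to 528 FPKM in WT libraries and 675 to 688 FPKM with KO neutrophils, the beta-tubulin bars stay between 444 and 464 FPKM in all 6 libraries, and the Actb segment is taller in each KO bar.

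How far these genes can be told apart by sequence was examined, since reads that fit several genes may have been shared out by the quantification. Of all 75-base stretches in the coding sequence, 93.8% in Tuba1b, 84.9% in Tuba1c and 84.4% in Tuba1a also occurred in transcripts of another gene. The values of the single Tuba1 genes are uncertain for that reason. The share was 97.1% in Actg1, 52.7% in Tubb2a, 45.7% in Tubb4b and 4.6% in Actb, and no stretch of Tubb5, Tubb6 or Tuba4a was shared. Outside the coding sequence few stretches were shared, with 22.4% in Tuba1a as the highest value. Tubb5 and Tubb4b, which differed in opposite directions, shared no stretch with one another.

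The partners of Actg1 were mostly processed pseudogenes, which are spliced copies put back into the genome. The largest, Gm12715, held 898 of the stretches of Actg1 and was assigned 131 ± 3.08 FPKM in WT libraries and 133 ± 1.95 FPKM with KO neutrophils. With its 9 pseudogenes added, Actg1 came to 412 ± 12.7 and 412 ± 14.2 FPKM, so the arms were as level as before. The ratio of Actb to this larger sum was 0.759 ± 0.023 with WT neutrophils and 1.00 ± 0.035 with KO neutrophils. The Tuba1 genes together with their 9 pseudogenes came to 587 ± 9.16 and 763 ± 5.07 FPKM, 30.1% higher in the KO arm, close to the 30.7% without them. Tubb4b with its 3 pseudogenes was 36.8% higher, as against 36.9% alone. Tubb2b, which shares most with Tubb2a, was listed at 0 in all libraries.

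**Figure D4:**
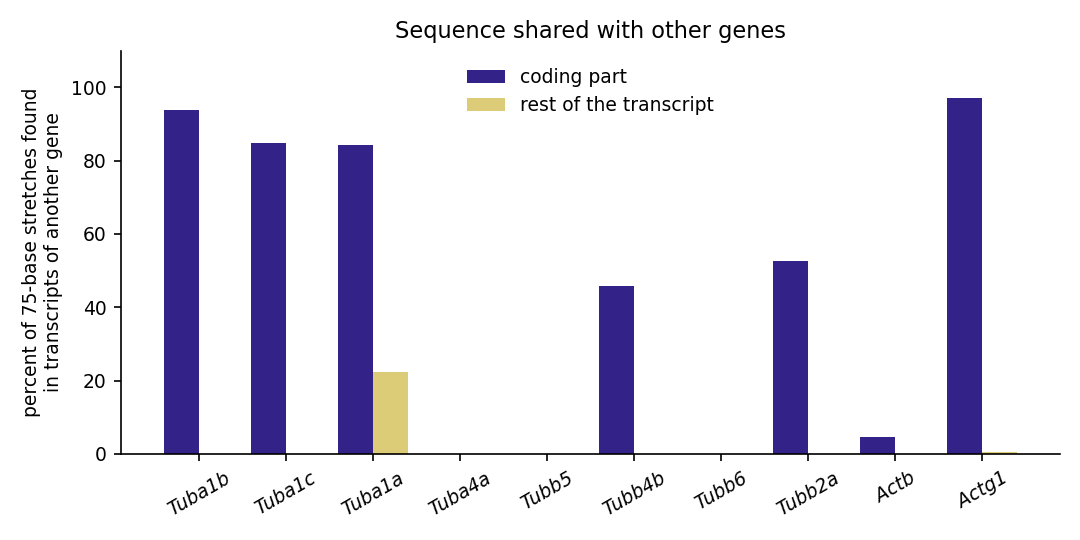
Percent of 75-base stretches of each transcript that also occur in transcripts of another gene, for the coding part (dark bars) and the rest of the transcript (light bars). The Tuba1 genes and Actg1 are shared over 84.4 to 97.1% of the coding part, whereas Tubb5, Tubb6 and Tuba4a have no bar.

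Promoters of the members were read for short motifs, and no link between a motif and a difference in level was tested. RefSeq promoters of GRCm38.p6, from 250 bases before to 50 after the start, were found for 8 members, and Actb and Tubb6 have no entry in the table. RefSeq starts can differ from the gene ends given above, and only 75 bases of the Tuba1b window and 48 of the Tuba1a window lie upstream of the gene. The pentamer CCAAT, on either strand, is the core of the element bound by NF-Y and occurred in 37.4% of all 32851 promoters. It occurred in 5 of the 8 member promoters, those of Actg1, Tuba1a, Tuba1c, Tubb4b and Tubb5. The copy of Tuba1a lay outside the 48 bases upstream of the gene. Tubb4b held 5 copies, a number reached by 0.27% of all promoters, and Tubb5 held 2, a number reached by 11.7%. Tuba1b, Tuba4a and Tubb2a held none. The upstream bases of the 2 beta-tubulin genes that held any are shown, with CCAAT in capitals.
Tubb4b, chr2:25224703-25224952, minus strand: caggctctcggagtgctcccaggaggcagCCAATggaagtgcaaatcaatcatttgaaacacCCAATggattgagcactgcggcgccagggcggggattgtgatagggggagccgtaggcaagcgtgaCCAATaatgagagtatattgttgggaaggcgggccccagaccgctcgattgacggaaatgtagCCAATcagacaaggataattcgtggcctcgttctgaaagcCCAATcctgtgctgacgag
Tubb5, chr17:35838307-35838551, minus strand: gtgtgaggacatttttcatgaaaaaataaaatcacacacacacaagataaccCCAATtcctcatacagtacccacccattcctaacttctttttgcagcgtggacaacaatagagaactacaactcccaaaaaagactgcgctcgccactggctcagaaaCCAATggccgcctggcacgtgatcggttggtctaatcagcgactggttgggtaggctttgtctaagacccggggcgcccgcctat
The TATA box letters TATAAA occurred in Tubb2a and Tubb4b and in 8.3% of all promoters, and the GC box letters GGGCGG in 7 members and in 35.7% of all promoters. A CArG box, the element to which serum response factor binds, occurred in 1.6% of promoters and in Actg1 alone among the 8. It is given in capitals with its flanks.
Actg1, chr11:120348566-120348595, minus strand: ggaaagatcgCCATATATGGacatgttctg
A match is a description of letters and not a bound site.

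The surroundings of the members were described through 11 lists of partner genes, 203 genes in all, of which 163 had a mean of at least 1 FPKM. Of these, 49 were higher and 28 lower with KO neutrophils at an adjusted p under 0.05 by limma, or 30.1% and 17.2%. Over all genes tested 24.5% were higher and 18.8% lower, so the partner genes' shares are not read as particular to them. Their median log2 difference was 0.046, against 0.024 for all genes. The balance of directions changed on the TPM scale and not on the other scalings. On the TPM scale 37 partner genes were higher and 38 lower, and over all genes 2175 were higher and 2660 lower in place of 2789 and 2141. With a common sum without mitochondrial genes, median centring or quantile normalization, 46 to 50 partner genes were higher and 28 or 29 lower. Over all genes these scalings gave 2743 to 2821 higher and 2107 to 2157 lower.

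Other tubulins were scarce. Of 12 such genes 4 reached the filter, with 1 higher and 1 lower. Tubg1, the gamma-tubulin that nucleates microtubules, fell from 25.6 ± 1.21 to 21.4 ± 1.68 FPKM (log2 -0.25, SE 0.064, limma adjusted p = 0.0201), although its adjusted p ranged from 0.00871 to 0.0632 over the alternatives. The call was lost without WT replicate 1 (adjusted p = 0.0632) or 2 (0.0601) and with no filter on low values (0.0509), all by limma. Tubd1, a centriolar delta-tubulin, rose from 2.95 ± 0.406 to 3.83 ± 0.356 FPKM at an adjusted p of 0.0499 by limma, a call that was lost in 11 of 14 alternatives, among them leaving out any single library (limma adjusted p = 0.0517 to 0.136). Tubb4a, at 1.58 and 1.10 FPKM, and Tube1, at 1.19 and 1.07 FPKM, were not called (limma adjusted p = 0.126 and 0.406). Tubb3, the beta-tubulin of neurons, had 0.518 ± 0.094 and 0.596 ± 0.075 FPKM. None of 5 muscle and other actins reached the filter, and Acta2 was at most 0.374 FPKM in any library.

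Newly made tubulin and actin are folded by prefoldin and the CCT chaperonin, and tubulin is then assembled into dimers by the cofactors TBCA to TBCE. Of 24 folding genes 23 were tested, with 8 higher and 4 lower, a split that became 4 and 6 on the TPM scale. The count of higher genes was 5 without WT replicate 1, 2 or 3 or KO replicate 3, and 3 with no filter on low values. Tbcc, the cofactor that triggers release of the finished dimer, read 5.02, 5.83 and 5.72 FPKM in WT libraries and 12.7, 11.3 and 10.6 FPKM with KO neutrophils. It rose by 0.94 on the log2 scale (SE 0.08, limma adjusted p = 0.000215). Pdcl3, a phosducin-like helper of CCT, rose from 16.0 ± 0.263 to 22.7 ± 1.184 FPKM (limma adjusted p = 0.000278). The chaperonin itself took the other direction in part, as Cct2 fell from 212 ± 4.30 to 188 ± 1.33 FPKM (log2 -0.17, limma adjusted p = 0.000997). Cct3 and Cct4 also fell, by 0.11 and 0.17 on the log2 scale, whereas Cct8 rose by 0.14 (limma adjusted p = 0.0086, 0.00109 and 0.0235). The call of Cct8 was lost in 6 of 15 alternatives, without KO replicate 1 or 3 among them (limma adjusted p = 0.0626 and 0.0717), and reached an adjusted p of 0.0964 on the TPM scale. Tbcel, a relative of TBCE that destabilises tubulin, read 11.1, 10.8 and 10.5 FPKM in WT libraries and 4.79, 5.06 and 9.57 FPKM with KO neutrophils. KO replicate 3 stood near the WT libraries, and the limma adjusted p of 0.0435 ranged from 0.000141 to 0.123 over the alternatives. Leaving out any other library than KO replicate 3 ended the call (limma adjusted p = 0.091 to 0.123).

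Of 9 genes of the tubulin mRNA decay route 3 were higher and 1 lower, and 2 and 2 on the TPM scale. Ttc5, whose product recognises the residues that the capitals above encode, measured 5.46, 5.85 and 4.997 FPKM in WT libraries and 6.12, 6.37 and 6.72 FPKM with KO neutrophils. The difference of 0.20 on the log2 scale (SE 0.064) gave a limma adjusted p of 0.0422, and the call was lost in 8 of 15 alternatives, among them leaving out any library except WT replicate 2 (limma adjusted p = 0.0576 to 0.119). Scaper, the adaptor, fell from a mean of 4.83 to 3.83 FPKM (log2 -0.27, SE 0.071, limma adjusted p = 0.0225), a call lost without WT replicate 2 or 3 (limma adjusted p = 0.0607 and 0.0679). The deadenylase subunits Cnot8 and Cnot6 rose by 0.28 and 0.19 on the log2 scale (SE 0.035 and 0.031, limma adjusted p = 0.00129 and 0.00359), while the scaffold Cnot1 had means of 19.4 and 20.3 FPKM and was not called (limma adjusted p = 0.211). Of 16 enzymes that modify tubulin 11 were tested, with none higher and 1 lower. The lower gene was Agtpbp1, a deglutamylase (log2 -0.21, limma adjusted p = 0.0144), and Ttll12 had the highest level of the list, with 12.9 ± 0.343 and 13.6 ± 0.302 FPKM (limma adjusted p = 0.177).

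Genes of microtubule dynamics and motors counted 9 higher and 3 lower among 27 tested of 35. Stmn1, which encodes the dimer-sequestering protein stathmin, read 29.6, 31.6 and 33.8 FPKM in WT libraries and 66.8, 51.3 and 66.2 FPKM with KO neutrophils. It rose by 0.93 on the log2 scale (SE 0.109, limma adjusted p = 0.000889), and all KO libraries lay well above the WT libraries. Kif3a, a kinesin-2 motor, rose from 29.1 ± 0.854 to 38.2 ± 1.14 FPKM (limma adjusted p = 0.000288). Dynll1, a dynein light chain, read 7.13, 11.2 and 7.56 FPKM against 14.1, 14.0 and 21.9 FPKM, and its limma adjusted p of 0.0204 ranged from 0.0126 to 0.0639 over the alternatives. Leaving out WT replicate 1 or 3 ended this call (limma adjusted p = 0.0626 and 0.0639).

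On the actin side, 8 of 19 tested genes of monomer binding and filament turnover were higher and 2 lower (7 and 4 on the TPM scale, and 1 lower without KO replicate 2). Gsn, encoding the filament-severing protein gelsolin, rose from 42.1 ± 1.07 to 71.7 ± 1.15 FPKM (log2 0.76, SE 0.027, limma adjusted p = 5.64e-06). Cfl1, the main cofilin, rose from 128 to 167 FPKM (log2 0.38, SE 0.022, limma adjusted p = 3.94e-05). Coro1c and Wdr1, a coronin and a cofactor of cofilin, rose by 0.46 and 0.45 on the log2 scale (SE 0.045 and 0.063, limma adjusted p = 0.000419 and 0.00191). Tmsb10, a monomer-binding thymosin with a level close to that of Actb, had 376 ± 4.14 and 369 ± 4.55 FPKM and was not called (limma adjusted p = 0.319), though it was lower on the TPM scale (log2 -0.07, limma adjusted p = 0.0183).

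Actin nucleation genes were split, with 9 higher and 6 lower of 24 tested. The Arp2/3 subunit gene Arpc4 rose from 27.2 ± 1.80 to 40.8 ± 5.02 FPKM (log2 0.56, SE 0.095, limma adjusted p = 0.00434), while Arpc2, the most abundant gene of this list, had means of 210 ± 3.27 and 216 ± 1.56 FPKM and was not called (limma adjusted p = 0.0914, and 0.0056 after quantile normalization). Cyfip1, a subunit of the WAVE complex that switches Arp2/3 on, fell from 25.5 ± 0.286 to 14.7 ± 0.372 FPKM (log2 -0.76, SE 0.03, limma adjusted p = 7.91e-06). Hcls1, the cortactin of blood cells, fell from 75.8 ± 1.51 to 47.6 ± 0.950 FPKM (log2 -0.66, SE 0.026, limma adjusted p = 7.78e-06). The genes of bundling, adhesion and contractility were even, with 5 higher and 5 lower of 22 tested (5 and 8 on the TPM scale). Vcl, a focal adhesion gene for vinculin, and Myl6, a myosin light chain, rose by 0.61 and 0.57 on the log2 scale (SE 0.091 and 0.041, limma adjusted p = 0.00245 and 0.000109). Vasp, which promotes filament growth, and Msn, the membrane linker moesin, fell by 0.57 and 0.53 (SE 0.042 and 0.02, limma adjusted p = 0.00012 and 6.47e-06).

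Srf, whose product binds CArG boxes, had means of 13.0 and 13.9 FPKM and was not called (limma adjusted p = 0.341), and its coactivator gene Mrtfa rose from 6.84 to 8.21 FPKM (log2 0.23, SE 0.065, limma adjusted p = 0.029). The call of Mrtfa was lost in 7 alternatives, without WT replicate 2 or 3 or KO replicate 1 or 2 among them (limma adjusted p = 0.0677 to 0.0851). Of 4 intermediate filament genes tested, Lmnb1 fell from 38.4 ± 2.05 to 29.04 ± 0.725 FPKM and Lmnb2 rose from 7.23 ± 0.267 to 9.24 ± 0.504 FPKM (limma adjusted p = 0.000755 and 0.0035), while Vim, which encodes vimentin, had 159 ± 3.15 and 157 ± 2.65 FPKM (limma adjusted p = 0.526).

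**Figure D5:**
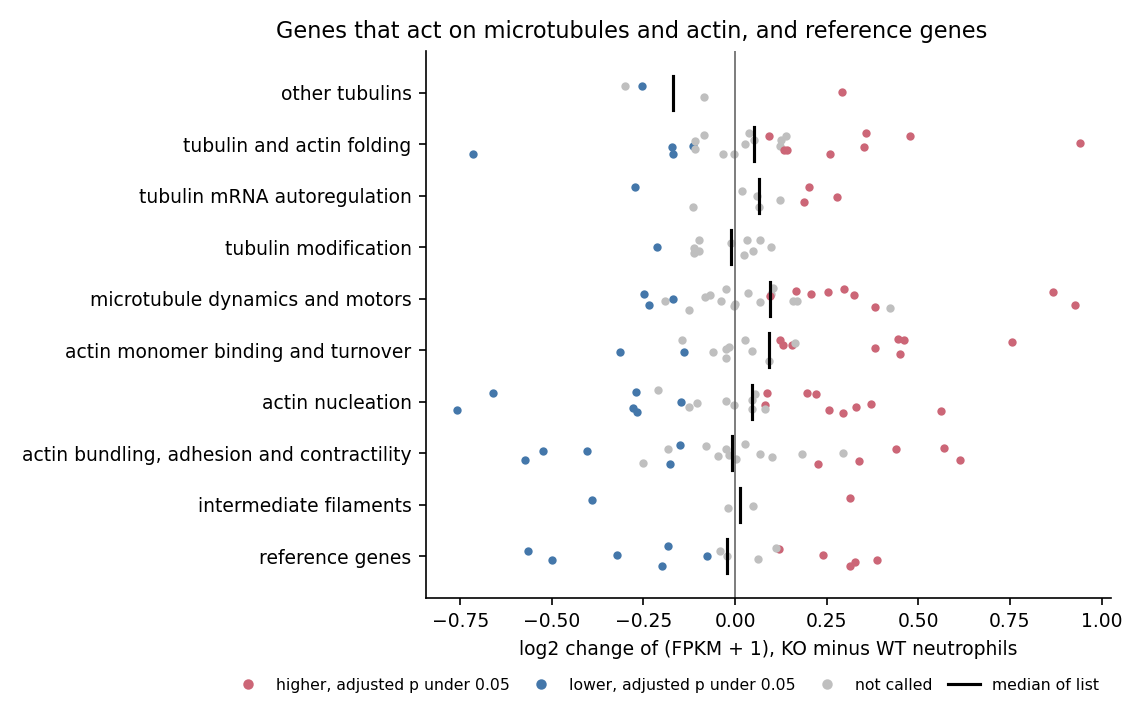
Log2 difference of (FPKM + 1), KO minus WT neutrophils, of each tested gene in 9 partner lists and in the reference genes, with red for higher and blue for lower at a limma adjusted p under 0.05, grey for the rest and a black line at the median. Called genes lie on both sides of 0 in every list except tubulin modification, and the medians lie between -0.17 and 0.10.

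Markers of proliferation and of macrophages were measured beside the members. Of 12 proliferation markers 7 were higher, 1 was lower and 4 were not called, where 24.5% of all genes were higher and 18.8% lower. Bub1, a kinase of the mitotic checkpoint, was the one that fell, by 0.25 on the log2 scale (limma adjusted p = 0.00147). The summed level of this list was 420 to 427 FPKM in WT libraries and 513 to 524 FPKM with KO neutrophils. Among them Pcna, the sliding clamp of DNA replication, rose from 94.6 ± 3.23 to 147 ± 1.94 FPKM, Mki67 from 49.8 ± 0.908 to 64.9 ± 1.23 FPKM and Top2a from 52.0 ± 0.584 to 57.7 ± 1.00 FPKM (limma adjusted p = 1.4e-05, 8.12e-05 and 0.0033). Of 14 microglia and macrophage markers 10 were tested, with 6 higher, 2 lower and 2 not called, and the sum of the list was 923 to 965 FPKM against 1137 to 1169 FPKM. Cd68 and Tyrobp, a lysosomal protein and an adaptor of phagocytic receptors, rose by 0.40 and 0.48 on the log2 scale, and Fcer1g fell by 0.28 (limma adjusted p = 5.92e-05, 0.000724 and 0.00152). Cx3cr1, the fractalkine receptor, fell by 0.81 (limma adjusted p = 0.00148). The mitochondrial share and the sum of neutrophil markers, given above, also differed between the arms without overlap. Their part in the tubulin and actin differences was not tested.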

How the data were processed

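The authors deposited 1 table of FPKM values per gene for 6 mouse libraries. Per the submitters' processing notes, fastp 0.17.1, HISAT2 2.1.0, DESeq2 1.18.1 and R 3.4.3 were used. The quantification program, genome build and annotation were not given in the sources used here, nor whether multi-mapped reads were shared out. The labels and the study's methods name different library kits and sequencers. Coordinates come from GENCODE M21 on GRCm38.p6. Symbols were matched for 99.67% of 55335 identifiers, and where identifiers shared a symbol the lowest kept it.

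The 11395 genes averaging 1 FPKM or more were tested as log2(FPKM + 1) with limma 3.58.1 in R 4.3.3 (trend, 3 against 3 libraries, two-sided), and p-values were adjusted over all of them by the Benjamini-Hochberg method. The 9 members past this filter were part of the fit and of the counts over all genes. Their standard errors (SE) are the moderated ones of limma and do not follow from the SD printed beside them. Fold changes on this scale understate those of low genes. Read counts were not analysed here, so no count model was used. The script was tested on simulated data. Sequence sharing was computed in Python 3.11.15 by exact matches of 75-base stretches, and promoters came from RefSeq.

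The members and lists were chosen with earlier results of these data known. For the lists reported, named were all members, Cd177, other tubulins of at least 1 FPKM, up to 3 called genes per list with a mean of at least 5 FPKM by the largest difference, the most abundant gene of each list and up to 3 markers per marker list. Cct3, Cct4, Cct8, Bub1, Cx3cr1, Scaper, Cnot1, Agtpbp1, Cfl1, Srf, Mrtfa, Tubb2b and Tubb3 were named after their values were seen. Of the 11 partner lists, 1 enters the counts over all partner genes, but its own result is not reported here, and of its genes only Srf and Mrtfa are given, outside the rule. Alternatives were a pseudocount of 0.1, no filter and a filter of 5 FPKM, 4 other scalings, a replicate block and leaving out each library.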

Additional observations from a re-analysis of the deposited data

How the results depend on the processing

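Among 1214 comparisons of a value with its alternatives, no called value and no member with separate arms changed sign, and 1129 kept their call or stayed within the limits set for a change. Values near 0 did change sign. They were Actg1 (up to 0.036), the beta-tubulin sum (up to 0.01) and Arpc2 (-0.003 on the TPM scale). The counts over all genes and over all partner genes stayed within 1.5 times their values. Leaving out 1 library gave 2281 to 2408 genes higher, against 2789, and 39 to 42 partner genes, against 49. Replicate numbers did not pair the libraries (correlations of deviations -0.075, -0.052 and -0.005 for numbers 1 to 3). With the replicate number as a replicate block 2373 genes were higher and 1839 lower, and 39 and 26 partner genes. Of 33 called partner, reference and marker genes named by the rule, 28 passed in every alternative, and Tubg1, Tubd1, Tbcel, Ttc5 and Dynll1 did not. Under the block, Tubd1, Tbcel, Ttc5, Agtpbp1 and Mrtfa were not called (limma adjusted p = 0.11, 0.0591, 0.0901, 0.0509 and 0.07). The TPM scale moved the median of all genes from 0.024 to -0.021. This scale divides each value by the summed FPKM of its library, which lowers values of the KO libraries relative to WT. The sums were 323588 to 326868 with KO and 314085 to 315632 with WT neutrophils, and why they differ was not tested. The TPM scale moved 9 member or family values down by more than their replicate spread, while Tubb2a went from 0.543 to 0.552. FPKM values carry no counts, so counting error could not enter the tests, and Tuba4a lay below what the roughly estimated depth could show.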

Other observations

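Reference genes, often used to normalise measurements of single transcripts, were not all level in these libraries. Of 15 such genes 5 were higher and 6 lower with KO neutrophils (limma, 4 and 7 on the TPM scale), or 33.3% and 40.0%, where 24.5% of all genes were higher and 18.8% lower, with a median log2 difference of -0.02. Pgk1, a glycolytic kinase, fell from 596 ± 12.9 to 403 ± 4.13 FPKM and B2m, the light chain of MHC class I, from 1253 ± 17.9 to 886 ± 16.2 FPKM (limma adjusted p = 6.03e-06 and 7.78e-06). Ppia, a cyclophilin, rose from 243 ± 14.7 to 317 ± 7.70 FPKM (limma adjusted p = 0.000957). Rplp0, a ribosomal stalk protein gene, had 1097 ± 15.3 and 1080 ± 5.85 FPKM and was not called (limma adjusted p = 0.317), but was lower on the TPM scale (log2 -0.07, limma adjusted p = 0.00884) and after quantile normalization (log2 -0.05).

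The difference of Actb relative to a reference therefore depended on which gene was used. The ratio of Actb to Gapdh was 1.13, 1.02 and 1.03 in the WT libraries and 1.60, 1.57 and 1.60 in the KO libraries, 50.1% higher. Relative to B2m, Rplp0, Hprt and Ywhaz, Actb was 86.8%, 34.2%, 26.3% and 21.3% higher, without overlap of the arms. Relative to Ppia it was 0.8% higher with overlapping arms. Tubb5 was 27.9% higher relative to B2m and overlapped relative to Gapdh. Relative to Rplp0, Hprt, Ywhaz and Ppia it differed by -8.2%, -13.4%, -16.9% and -30.9%. These ratios are formed within a library and are given as a description.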
